A study of Mus musculus with 17 samples.

Results

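The genes described here are 10 that encode enzymes of branched-chain amino acid breakdown: Bcat2, Bckdha, Bckdhb, Dbt, Ivd, Mccc1, Mccc2, Pcca, Pccb and Hibadh. They were chosen by name from 22180 genes, with earlier results of these data known. The shares of all genes printed beside their counts are therefore a description and not a test. Each gene was read by the probe set that carries its symbol alone and has the highest mean signal over the 17 arrays. All 10 were measured, and no filter on low signals was applied. RNA came from periprostatic fat, a pad of adipose tissue next to the prostate, and was hybridised to Affymetrix Mouse Gene 2.0 ST arrays, 1 for each of 17 C57BL/6J males killed at 25 weeks of age. From 6 weeks of age, 6 mice ate a low-fat diet with 10 kcal% fat (LFD) and the others a diet with 60 kcal% fat. After 12 weeks, 6 of these mice went on eating the high-fat diet freely for 7 weeks (HFD), while 5 received 70% of the HFD group's intake over those weeks, a calorie restriction of 30% (HFD_CR). The restricted mice thus kept the high-fat diet, and no group ate less of the low-fat diet.

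Leucine, isoleucine and valine share the opening steps of their breakdown. A mitochondrial aminotransferase, encoded by Bcat2, turns them into ketoacids, and the branched-chain ketoacid dehydrogenase complex commits the ketoacids to oxidation. The paths then part: Ivd, Mccc1 and Mccc2 act on leucine products, Hibadh acts on a valine product, and propionyl-CoA carboxylase, made of the Pcca and Pccb subunits, takes up propionyl-CoA from isoleucine and valine. In fat cells the carbon enters the citric acid cycle and fatty acid synthesis, and adipose tissue is known as a site that clears these amino acids from blood.

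Array medians lay between 7.03 and 7.15 on the log2 scale, and the median correlation between arrays over all genes was 0.993 within groups and 0.985 between them. Array signals have no true zero, and precision is set by how many arrays each group has. The 9 measured white adipocyte markers averaged between 12.97 and 13.28 in every mouse, and Adipoq, the gene of the hormone adiponectin, lay between 11.24 and 11.88. Some arrays also carried signals of other tissues. The mean of 8 skeletal muscle genes reached 10.8 (LFD mouse 2), 9.47 (HFD_CR mouse 2), 9.38 (LFD mouse 3) and 8.18 (HFD mouse 6). It was 7.95 in LFD mouse 5 and between 6.68 and 6.98 in the other mice. The mean of 7 gland epithelium genes was 9.94 in LFD mouse 3 and 7.91 in HFD mouse 3, and lay between 7.23 and 7.66 in the other 15 mice. The mean of 7 male germ cell genes was 9.98 in HFD_CR mouse 1 and between 7.23 and 8.41 elsewhere. The mean of 8 thermogenic adipocyte genes was 10.6 in LFD mouse 3 and 10.1 in LFD mouse 6, and Ucp1, which encodes the uncoupling protein of heat-producing fat cells, reached 12.6 and 12.1 there. A set of 4 arrays, LFD mice 2 and 3, HFD mouse 3 and HFD_CR mouse 2, was taken from an earlier analysis of these data as "the 4 arrays with other tissue". It is not the set that the means above would give, since it holds HFD mouse 3. It also leaves in LFD mouse 5, HFD mouse 6 and HFD_CR mouse 1. The 10 genes, their subunit differences, other genes of the pathway, Adipoq and Ucp1 were rerun with fewer arrays. The runs left out these 4 arrays, LFD mice 3 and 6, or 1 mouse. Counts of called genes that moved most are given both ways, but not every call that moved is printed. The remaining genes of the metabolic and cell type lists were not rerun.

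The sequence upstream of the genes was read from RefSeq's promoter table for GRCm38.p6, as the 250 bases before each annotated start. The table held 12 such windows for 9 of the 10 genes, with none for Dbt. Of these windows 4 are shown. The first 3 were chosen for holding the most copies of CCAAT among these genes, and that of Bckdha for holding none. Each is printed 5′ to 3′ on the strand of the gene, and capitals mark CCAAT or its reverse complement. The Ivd window is chr2:118861744-118861993 (plus strand), the Mccc1 window chr3:36000679-36000928 (minus strand), the Mccc2 window chr13:100015640-100015889 (minus strand) and the Bckdha window chr7:25658762-25659011 (minus strand).
Ivd: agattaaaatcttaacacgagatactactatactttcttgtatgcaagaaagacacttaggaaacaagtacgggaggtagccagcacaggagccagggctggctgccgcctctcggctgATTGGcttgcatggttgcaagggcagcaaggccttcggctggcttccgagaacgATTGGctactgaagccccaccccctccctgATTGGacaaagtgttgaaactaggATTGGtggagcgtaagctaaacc
Mccc1: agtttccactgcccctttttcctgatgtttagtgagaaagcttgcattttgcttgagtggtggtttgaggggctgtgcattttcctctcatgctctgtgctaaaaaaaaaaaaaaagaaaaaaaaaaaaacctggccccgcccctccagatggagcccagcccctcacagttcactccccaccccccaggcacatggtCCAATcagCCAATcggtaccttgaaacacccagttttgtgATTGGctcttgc
Mccc2: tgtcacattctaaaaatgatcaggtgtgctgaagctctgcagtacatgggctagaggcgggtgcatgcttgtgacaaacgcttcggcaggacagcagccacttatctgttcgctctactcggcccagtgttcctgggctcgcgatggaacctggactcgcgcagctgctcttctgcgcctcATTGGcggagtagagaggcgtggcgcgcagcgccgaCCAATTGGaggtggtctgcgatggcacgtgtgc
Bckdha: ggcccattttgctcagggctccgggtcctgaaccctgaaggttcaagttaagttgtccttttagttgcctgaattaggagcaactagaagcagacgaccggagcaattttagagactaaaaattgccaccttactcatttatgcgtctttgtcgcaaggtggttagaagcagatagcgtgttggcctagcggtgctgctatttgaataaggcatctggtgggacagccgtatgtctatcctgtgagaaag
Ivd held 4 matches, whose first bases lay at -131, -77, -47 and -23 from the start. Mccc1 held 3, at -52, -44 and -12, and Mccc2 held 3, at -69, -33 and -30, of which the last pair overlap on opposite strands. Bckdhb held 2 matches in 1 of its 2 windows, Hibadh 1, and Pcca 1 in each of its 2 windows, while the windows of Bcat2, Bckdha and Pccb held none. CCAAT stood in 7 of the 12 windows and in 33.8% of all 32851 windows of this length, and at least 3 copies stood in 2.79% of all windows. The windows shown were picked by their count of CCAAT, so the 2.79% is no test of them. Of the 6 other motifs searched on both strands, GGGCGG stood in 4 of the 12 windows (32.7% of all), AGGTCA in 2 (14.0%), CACGTG in that of Mccc2 alone (6.02%) and GCGCATGC in that of Pccb alone (2.26%). TCAAGGTCA, which contains AGGTCA, stood in none (0.387% of all), and neither did TTGCGCAA (0.164%). These matches describe letters in a window and not binding.

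The comparison of HFD with LFD asks how a fat-rich diet changed the fat around the prostate. All 10 genes fell in HFD, by between 0.34 and 0.89 on the log2 scale, with a median difference of -0.62 where the median over all genes was -0.0032. A gene is said to rise or fall when its adjusted p is under 0.05, and these p-values come from limma, adjusted by the Benjamini-Hochberg method over all 22180 genes. Of all genes, 11.3% fell and 16.5% rose in this comparison. These are 2502 and 3663 genes, and centring each array on its median turned the split to 3347 and 3076. For each of the 10 genes the highest HFD mouse lay below the lowest LFD mouse, a separation in this direction seen in 5.21% of all genes. The call for all 10 held in each of the 27 alternative settings tried. Some of these, such as leaving out an HFD_CR mouse, do not alter the HFD and LFD signals. In bulk tissue, fewer cells of a type and less RNA per cell cannot be told apart.

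**Figure D1:**
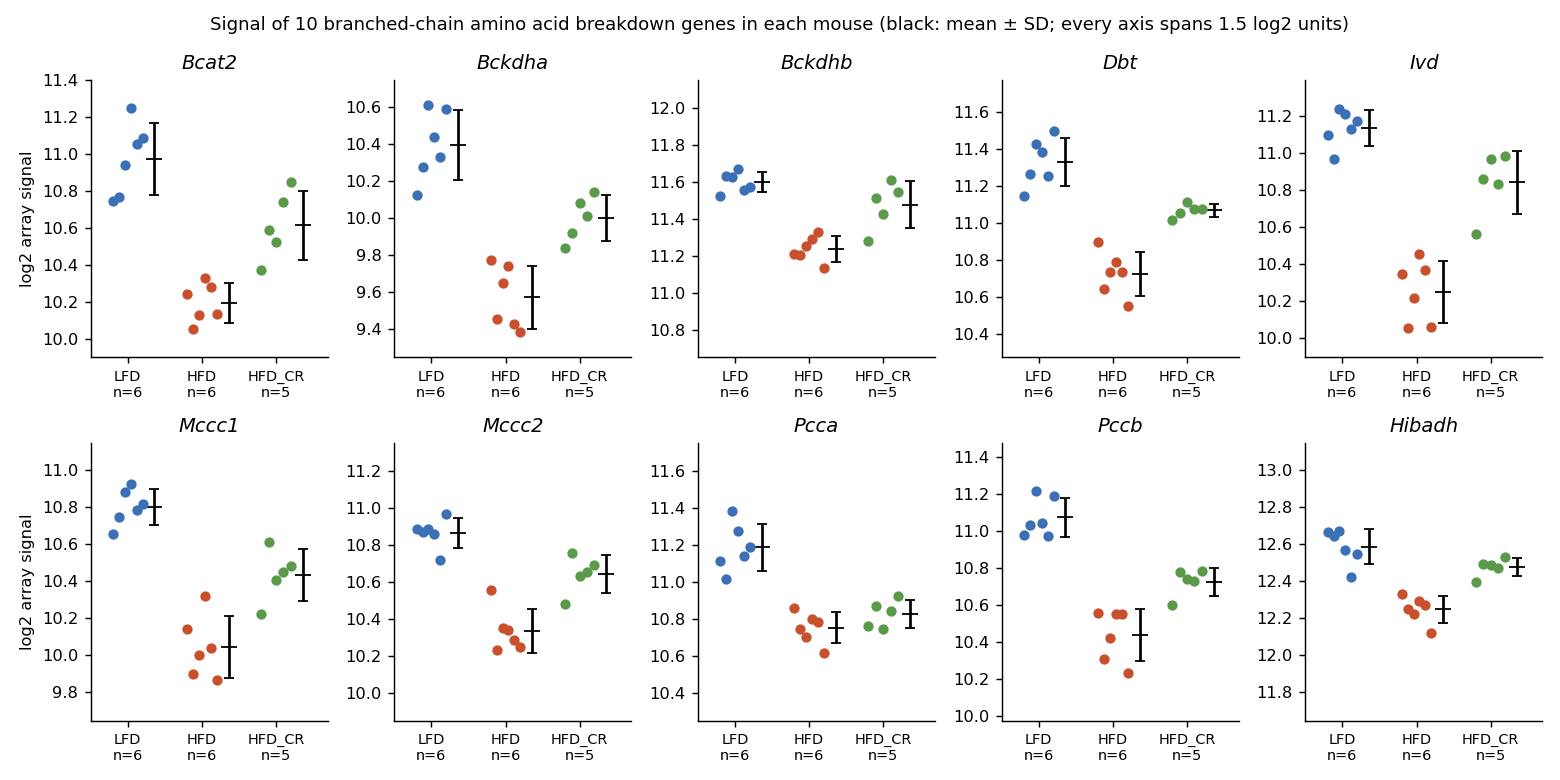
Log2 array signal (vertical axes, each spanning 1.5 log2 units) of the 10 genes in each mouse (points), by group, with the group mean ± SD in black. For every gene the 6 HFD mice lie below the 6 LFD mice, and the mean of the 5 HFD_CR mice lies between both other means.

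Bcat2 carries out the first, reversible step in mitochondria. Its log2 signal ran from 10.74 to 11.25 in LFD mice (median 11.00) and from 10.05 to 10.33 in HFD mice (median 10.19). The HFD mean was 0.78 ± 0.09 (SE) log2 units lower (adjusted p = 3.17e-06, limma), which left 58.3% of the LFD signal. The 5 HFD_CR mice read 10.37, 10.59, 10.53, 10.74 and 10.85. All 5 lay above every HFD mouse, and the highest of them overlapped the LFD range.

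The dehydrogenase complex is built from an E1 part with alpha and beta subunits (Bckdha and Bckdhb), an E2 core (Dbt) and an E3 subunit (Dld) that it shares with other complexes. Bckdha ran from 10.13 to 10.61 in LFD (median 10.39) and from 9.38 to 9.77 in HFD (median 9.55), a fall of 0.82 ± 0.09 (adjusted p = 1.6e-06, limma). Its partner Bckdhb ran from 11.53 to 11.67 in LFD (median 11.60) and from 11.14 to 11.33 in HFD (median 11.24), a fall of 0.36 ± 0.05 (adjusted p = 4.3e-05, limma). The signal kept in HFD was therefore 56.5% for the alpha subunit and 78.0% for the beta subunit. Dbt ran from 11.14 to 11.50 in LFD (median 11.32) and from 10.55 to 10.89 in HFD (median 10.73), and its mean fell by 0.60 ± 0.06 (adjusted p = 7.81e-07, limma) to 65.8% of the LFD signal.

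In the leucine branch, Ivd encodes isovaleryl-CoA dehydrogenase, and Mccc1 and Mccc2 encode the alpha and beta subunits of methylcrotonyl-CoA carboxylase, a biotin enzyme. Ivd had the largest fall of the 10 genes. It ran from 10.97 to 11.24 in LFD (median 11.15) and from 10.06 to 10.45 in HFD (median 10.28), and its mean fell by 0.89 ± 0.08 (adjusted p = 2.09e-07, limma) to 54.1% of the LFD signal. Mccc1 fell by 0.76 ± 0.08 (adjusted p = 6.74e-07, limma) from a range of 10.65 to 10.93 (median 10.80) to one of 9.86 to 10.32 (median 10.02). Mccc2 fell by 0.53 ± 0.06 (adjusted p = 2.3e-06, limma) from a range of 10.72 to 10.97 (median 10.88) to one of 10.23 to 10.56 (median 10.31). The highest HFD signal of Mccc2 was that of HFD mouse 1, which stood apart from the other 5.

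Propionyl-CoA carboxylase, also a biotin enzyme, is built from the alpha subunit Pcca and the beta subunit Pccb. Pcca ran from 11.02 to 11.39 in LFD (median 11.16) and from 10.62 to 10.86 in HFD (median 10.77), a fall of 0.43 ± 0.06 (adjusted p = 1.91e-05, limma). Pccb ran from 10.98 to 11.22 in LFD (median 11.04) and from 10.23 to 10.56 in HFD (median 10.49), a fall of 0.64 ± 0.06 (adjusted p = 6.74e-07, limma). Hibadh, the 3-hydroxyisobutyrate dehydrogenase of the valine branch, had the smallest fall of the 10 genes, 0.34 ± 0.05 (adjusted p = 3.32e-05, limma). Its signal ran from 12.42 to 12.67 in LFD (median 12.60) and from 12.12 to 12.33 in HFD (median 12.25), so the groups were still separate.

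The comparison of HFD_CR with HFD asks what eating less of the same diet did. Here 9 of the 10 genes rose, all but Pcca, and the median difference over the 10 was 0.33 where that over all genes was -0.0024. Of all genes, 7.69% rose and 11.3% fell. For 6 genes (Bcat2, Bckdha, Dbt, Ivd, Pccb and Hibadh) the lowest HFD_CR mouse lay above the highest HFD mouse, a separation in this direction seen in 5.42% of all genes. The same 9 genes passed in each of the 27 alternative settings. Settings that drop only LFD mice leave the signals of both groups as they are, and change only the shared spread and the adjustment.

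Ivd rose most in HFD_CR, by 0.59 ± 0.08 (adjusted p = 8.5e-05, limma), with signals of 10.56, 10.86, 10.97, 10.83 and 10.98 in the 5 mice. Bckdha rose by 0.43 ± 0.09 (adjusted p = 0.00334, limma) and Bcat2 by 0.42 ± 0.09 (adjusted p = 0.00394, limma), against 0.24 ± 0.06 for Bckdhb (adjusted p = 0.00505, limma). Dbt rose by 0.34 ± 0.07 (adjusted p = 0.000965, limma), and its 5 HFD_CR signals lay close together at 11.02, 11.05, 11.11, 11.08 and 11.08. The ranges of the E1 beta subunit Bckdhb overlapped, since 1 HFD_CR mouse at 11.29 lay below the highest HFD mouse at 11.33.

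Mccc1 rose by 0.39 ± 0.08 (adjusted p = 0.00196, limma) and Mccc2 by 0.31 ± 0.06 (adjusted p = 0.00177, limma), both with HFD_CR mouse 1 (10.22 and 10.48) inside the HFD range. Pccb rose by 0.29 ± 0.07 (adjusted p = 0.00508, limma) and Hibadh by 0.23 ± 0.05 (adjusted p = 0.00363, limma). Pcca was the exception: its HFD_CR signals of 10.76, 10.87, 10.74, 10.84 and 10.93 overlapped those of HFD. Its difference was 0.08 ± 0.06 (adjusted p = 0.472, limma), with a 95% interval from -0.05 to 0.21, so a rise as large as those of Mccc2 or Pccb lay outside the interval. HFD_CR mouse 1 had the lowest signal of its group for 9 of the 10 genes, and it is the mouse with the high germ cell signal. The relation of these observations was not tested.

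The comparison of HFD_CR with LFD asks how far the restricted mice still differed from lean-diet mice. In HFD_CR, 8 of the 10 genes were lower than in LFD, the median difference being -0.32 where that over all genes was -0.00045. Of all genes, 3.28% were lower and 5.8% higher. The 2 genes that did not pass were Bckdhb, at -0.12 ± 0.06 (adjusted p = 0.201, limma), and Hibadh, at -0.11 ± 0.05 (adjusted p = 0.211, limma). For 4 genes (Dbt, Mccc1, Pcca and Pccb) every HFD_CR mouse lay below every LFD mouse, against 2.43% of all genes. Bckdha was lower by -0.40 ± 0.09 (adjusted p = 0.0119, limma), Mccc1 by -0.37 ± 0.08 (adjusted p = 0.0069, limma), and Pcca by -0.36 ± 0.06 (adjusted p = 0.00124, limma). Bcat2 was lower by -0.36 ± 0.09 (adjusted p = 0.0218, limma) and Pccb by -0.35 ± 0.07 (adjusted p = 0.00304, limma). Ivd differed by -0.29 ± 0.08 (adjusted p = 0.0357, limma), Dbt by -0.26 ± 0.07 (adjusted p = 0.0157, limma) and Mccc2 by -0.22 ± 0.06 (adjusted p = 0.0323, limma). The count of 8 depended on single mice: it was 5 without HFD_CR mouse 1 and 5 without LFD mouse 4, 4 without the 4 arrays with other tissue and 3 without LFD mice 3 and 6. Mccc1, Pcca and Pccb passed in every setting, while Bcat2, Bckdha, Dbt, Ivd and Mccc2 lost the call in some. Without the 4 arrays with other tissue the adjusted p was 0.0734 for Bckdha and 0.0861 for Dbt (limma). Without LFD mice 3 and 6 it was 0.0703 and 0.0881 (limma).

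**Figure D2:**
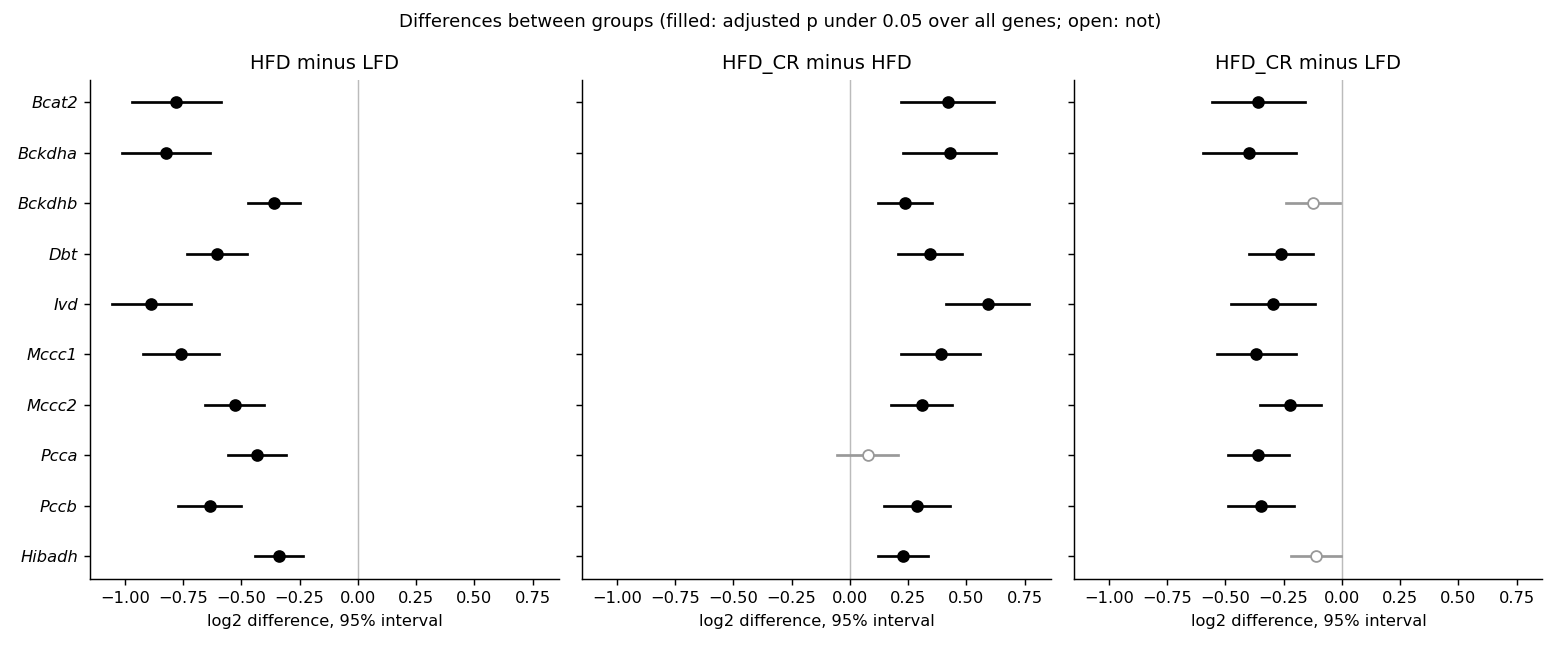
Log2 difference between groups (horizontal axes) of each of the 10 genes for the 3 comparisons, with 95% intervals from limma; filled points passed adjusted p under 0.05 over all genes. All 10 points are filled and below 0 for HFD minus LFD, all but Pcca are filled and above 0 for HFD_CR minus HFD, and all but Bckdhb and Hibadh are filled and below 0 for HFD_CR minus LFD.

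On a scale where the HFD mean is 0% and the LFD mean 100%, the HFD_CR mean of the 10 genes lay at a median of 55.4%. Hibadh stood at 67.4% ± 13.5 (SE), Ivd at 66.7% ± 8.56 and Bckdhb at 66.0% ± 13.8. Pcca stood lowest at 17.6% ± 13.3, and the gene next above it, Pccb, at 45.4% ± 9.35. The other 9 genes lay between 45.4% and 67.4%, with SEs of 8.56 to 13.8 points. These 3 comparisons share groups, so the positions restate the differences above and are a description only.

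The signals of subunits of 1 enzyme did not all change by the same amount. The log2 difference between partner subunits was taken within each array and compared between groups with 2-sided exact permutation tests over mice, 9 tests in all, for which the smallest possible p was 0.00216. The difference between Bckdha and Bckdhb was 0.47 lower in HFD than in LFD (value -0.47, p = 0.00216, adjusted over the 9 tests 0.00649, exact permutation test), with no overlap between the 6 mice of each group. It was -0.27 in HFD_CR against LFD (p = 0.0173, adjusted 0.0351, exact permutation test), a call kept in only 3 of 11 runs that each left out 1 mouse, and 0.19 in HFD_CR against HFD (p = 0.0671, adjusted 0.0863, exact permutation test).

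Both alpha subunits fell in HFD, but relative to its partner that of propionyl-CoA carboxylase moved in the opposite direction to that of the dehydrogenase. Pcca minus Pccb was 0.20 higher in HFD than in LFD (p = 0.00216, adjusted 0.00649, exact permutation test) and 0.21 lower in HFD_CR than in HFD (value -0.21, p = 0.00216, adjusted 0.00649, exact permutation test). Both calls held whichever mouse was left out, and HFD_CR differed from LFD by -0.01 (p = 0.83, exact permutation test). Mccc1 minus Mccc2 was -0.23 in HFD against LFD (p = 0.0195, adjusted 0.0351, exact permutation test), but this call was kept in only 6 of 12 runs that each left out 1 mouse. Its differences of 0.08 between HFD_CR and HFD (adjusted p = 0.275, exact permutation test) and -0.15 between HFD_CR and LFD (adjusted p = 0.0779, exact permutation test) did not pass. A within-array difference shows unequal change of the pair of signals, not which protein is in excess. The probe sets of a pair can lie at unlike levels, as with Bckdha (mean 9.99 over all arrays) and Bckdhb (11.4). Whether the probe sets of a pair respond alike to a change in RNA was not tested.

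**Figure D3:**
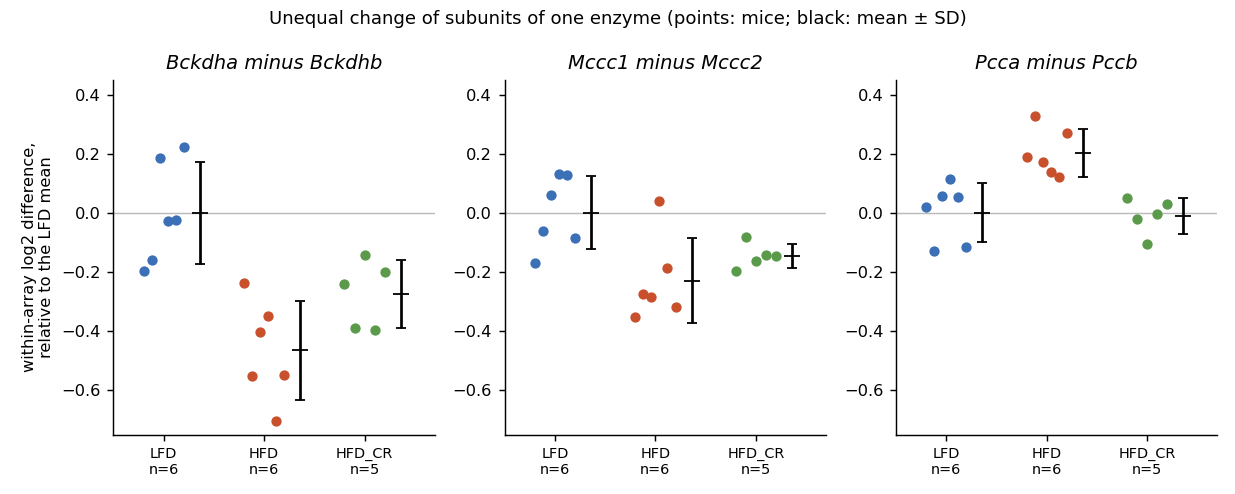
Within-array log2 difference between partner subunits in each mouse (points), relative to the LFD mean, for Bckdha minus Bckdhb, Mccc1 minus Mccc2 and Pcca minus Pccb, with mean ± SD in black. HFD mice lie below all LFD mice in the first panel and above all LFD and HFD_CR mice in the last.

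Another 30 genes of the pathway were listed by role, and 28 were measured. Their counts stand beside these shares of all genes: 11.3% fell and 16.5% rose in HFD against LFD. In HFD_CR against HFD 7.69% rose and 11.3% fell, and against LFD 3.28% were lower and 5.8% higher. In HFD against LFD, 19 of the 28 fell and 2 rose, Bcat1 and the lipoyl transferase gene Lipt2 (median difference -0.28). In HFD_CR against HFD, 9 rose and 1 fell (median 0.14), the amino acid transporter gene Slc7a5, at -0.25 ± 0.08 (adjusted p = 0.0413, limma), a call lost in 11 of 27 alternative settings. In HFD_CR against LFD, 5 were lower (Dld, Acadsb, Echs1, Acat1 and Mcee) and Bcat1 was higher (median -0.14). In this comparison the Mcee call was lost in 16 of 27 alternative settings and the Acadsb call in 3. Lipt2, Slc7a5, Mcee and Acat1 are named after their values were seen. The last count of 6 was 3 without HFD_CR mouse 1, without the 4 arrays with other tissue, or without LFD mice 3 and 6. The 12 measured enzymes and helpers of the leucine, isoleucine, valine and propionyl-CoA branches all fell in HFD (median -0.33), and 6 of them rose in HFD_CR against HFD (median 0.17). Of the 12 falls, those of Mmab and Mcee, which encode enzymes around methylmalonyl-CoA mutase and are named after their values were seen, were lost in 8 and 2 of 27 alternative settings.

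Of the branch enzymes, Aldh6a1, the methylmalonate semialdehyde dehydrogenase that follows Hibadh on the valine path, fell by 0.76 ± 0.07 in HFD (adjusted p = 3.71e-07, limma). It rose by 0.55 ± 0.08 in HFD_CR against HFD (adjusted p = 6.53e-05, limma). Acadsb, the short/branched-chain acyl-CoA dehydrogenase of the isoleucine path, fell by 0.65 ± 0.05 (adjusted p = 7.3e-08, limma) and rose by 0.43 ± 0.06 (adjusted p = 3.77e-05, limma). Echs1, the enoyl-CoA hydratase shared with fatty acid oxidation, was still lower in HFD_CR than in LFD by -0.31 ± 0.07 (adjusted p = 0.00665, limma), and Acat1, the thiolase at the end of the isoleucine path, by -0.20 ± 0.05 (adjusted p = 0.0312, limma). The Acat1 call was lost in 10 of 27 alternative settings.

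Bcat1, the cytosolic aminotransferase, moved against its mitochondrial counterpart Bcat2. Its signal ran from 7.08 to 7.93 in LFD (median 7.74) and from 8.41 to 8.57 in HFD (median 8.51), and the 5 HFD_CR mice read 8.65, 8.50, 8.45, 8.84 and 8.86. Every mouse on the high-fat diet, restricted or not, lay above every LFD mouse. Bcat1 rose by 0.86 ± 0.12 in HFD (adjusted p = 1.49e-05, limma) and was 1.02 ± 0.12 higher in HFD_CR than in LFD (adjusted p = 5.02e-05, limma). Between HFD_CR and HFD the difference was 0.15 ± 0.12 (adjusted p = 0.453, limma). The lowest LFD signal was that of LFD mouse 3, 1 of the mice with other-tissue signal. Slc25a44, the mitochondrial carrier of branched-chain amino acids, fell by 0.43 ± 0.10 in HFD (adjusted p = 0.00251, limma) and differed by 0.17 in HFD_CR against HFD (adjusted p = 0.300, limma).

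The kinase and the phosphatase that set the activity of the dehydrogenase complex fell by similar amounts. Bckdk, the kinase that switches it off, fell by 0.33 ± 0.08 in HFD (adjusted p = 0.00345, limma), and Ppm1k, the phosphatase that switches it on, by 0.31 ± 0.10 (adjusted p = 0.0197, limma). The Ppm1k call was lost without the 4 arrays with other tissue, where the difference was -0.20 (adjusted p = 0.0903, limma). In HFD_CR against HFD neither passed, with differences of 0.09 (adjusted p = 0.531, limma) and 0.13 (adjusted p = 0.442, limma). Dld, the shared E3 subunit, differed by -0.15 in HFD against LFD (adjusted p = 0.118, limma) and -0.17 in HFD_CR against HFD (adjusted p = 0.109, limma). It was lower in HFD_CR than in LFD by -0.32 ± 0.07 (adjusted p = 0.00749, limma). Of 6 measured genes that supply biotin, lipoate or cobalamin to these enzymes, Mmachc fell by 0.26 ± 0.06 (adjusted p = 0.00307, limma) and Lipt2 rose by 0.19 ± 0.06 (adjusted p = 0.0170, limma) in HFD, both named after their values were seen, and none passed in either other comparison by limma (1 had an unadjusted p under 0.05, Mmachc in HFD_CR against HFD). The Lipt2 call was lost in 3 of 27 alternative settings.

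Of the regulators listed, Klf15, a transcription factor known to act on amino acid breakdown genes, moved most. It ran from 8.82 to 9.26 in LFD (median 9.06) and from 8.08 to 8.42 in HFD (median 8.13), and the 5 HFD_CR mice read 8.47, 8.93, 9.08, 9.10 and 9.48. HFD was separate from both other groups. Klf15 fell by 0.84 ± 0.13 in HFD (adjusted p = 5.91e-05, limma) and rose by 0.82 ± 0.13 in HFD_CR (adjusted p = 0.000261, limma), leaving -0.02 ± 0.13 against LFD (adjusted p = 0.959, limma). Its HFD_CR mice overlapped the LFD range. Ppargc1a, a coactivator of mitochondrial genes, fell by 0.65 ± 0.13 in HFD (adjusted p = 0.00103, limma), and its rise of 0.44 ± 0.14 in HFD_CR (adjusted p = 0.0327, limma) was lost in 8 of 27 alternative settings. Pparg, the master regulator of fat cells, named here after its values were seen, fell by 0.36 ± 0.06 and rose by 0.30 ± 0.06 (adjusted p = 0.000136 and 0.00203, limma).

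**Figure D4:**
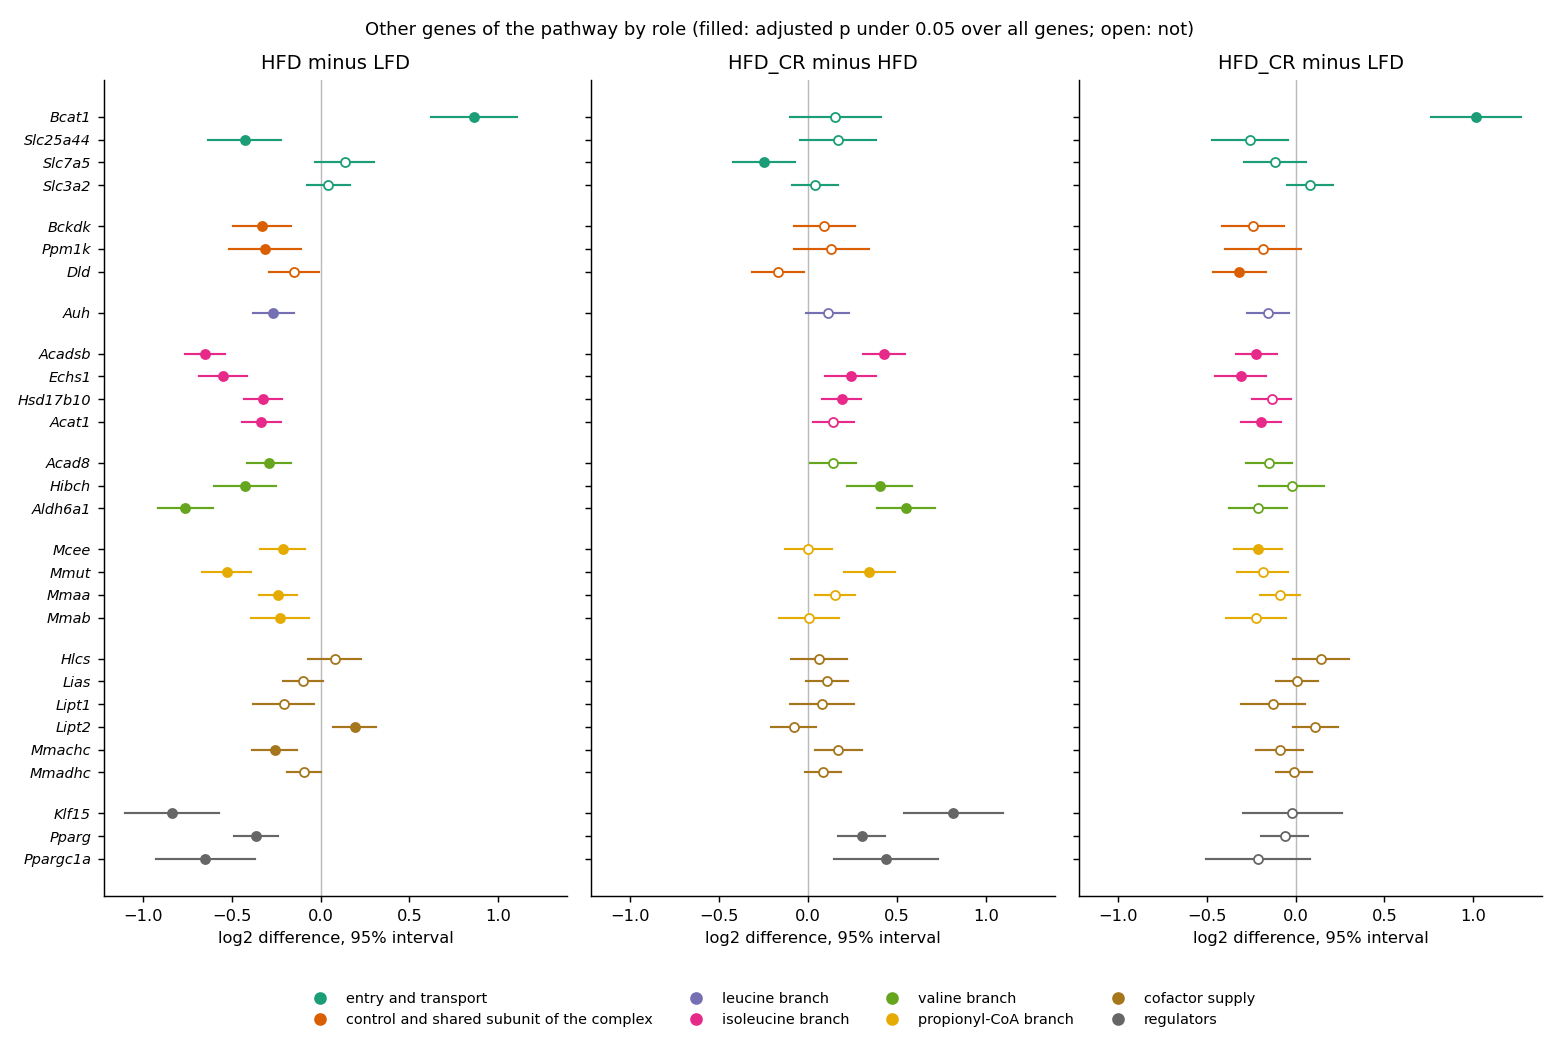
Log2 difference between groups (horizontal axes) of the 28 other measured pathway genes, grouped and coloured by role, with 95% intervals; filled points passed adjusted p under 0.05 over all genes. Most points lie below 0 for HFD minus LFD and above 0 for HFD_CR minus HFD, Bcat1 lies far above 0 for both contrasts with LFD, and the cofactor genes lie between -0.26 and 0.19 for HFD minus LFD.

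For neighbouring metabolic lists the same counts were taken, to be read beside the same shares of all genes. Of 15 citric acid cycle genes, 11 fell in HFD (median -0.30), Suclg2 and Sdha rose and Sucla2 fell in HFD_CR against HFD (median 0.06), and 11 were lower in HFD_CR than in LFD (median -0.21). Of 4 genes of the pyruvate dehydrogenase complex, which is related in build to the branched-chain complex, Pdha1, Pdhb and Pdhx fell in HFD (median -0.48), none rose by limma (0 at an unadjusted p under 0.05) and Dlat fell in HFD_CR against HFD (median -0.02) and all 4 were lower than in LFD (median -0.47). Of 10 fatty acid synthesis genes all fell in HFD (median -1.01), Scd1 and Thrsp rose in HFD_CR (median 0.11) and 9 were lower than in LFD (median -0.91). Of 15 fatty acid oxidation genes, Cpt2, Acadvl, Hadh, Eci1 and Eci2 fell and Cpt1a rose in HFD (median -0.06), Hadh, Eci1 and Eci2 rose and Cpt1a fell in HFD_CR (median -0.01), and against LFD Acadvl was lower and Cpt1a higher (median -0.09). Cpt1a, which brings fatty acids into mitochondria, thus moved against the breakdown genes, at 0.74 ± 0.05 in HFD against LFD (adjusted p = 1.31e-08, limma). The share of genes that rose under restriction was 9 of 10 for the breakdown genes and 2 of 15, 0 of 4, 2 of 10 and 3 of 15 for these lists. It was 6 of 12 for the other branch genes, 3 of 3 for the listed regulators and 5 of 9 for the white adipocyte markers. Of all genes, 7.69% rose. The difference between lists was not tested.

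Marker lists of cell types were set beside the breakdown genes, and their counts are to be read beside the same shares of all genes. The mean of the 10 breakdown genes lay between 11.09 and 11.29 in LFD, 10.43 and 10.69 in HFD, and 10.75 and 11.00 in HFD_CR mice. The mean of the 9 white adipocyte markers lay between 13.15 and 13.28 in LFD, 12.97 and 13.10 in HFD, and 13.16 and 13.28 in HFD_CR. Of these markers 6 fell in HFD (median -0.23), 5 rose in HFD_CR against HFD (Adipoq, Plin1, Lipe, Retn and, named after its values were seen, Cidec, median 0.23) and none passed between HFD_CR and LFD by limma (1 at an unadjusted p under 0.05, median -0.0003). Adipoq fell by 0.28 ± 0.06 in HFD (adjusted p = 0.00193, limma), rose by 0.32 ± 0.06 in HFD_CR (adjusted p = 0.00132, limma) and differed by 0.05 ± 0.06 between HFD_CR and LFD (adjusted p = 0.727, limma). The mean of the adipocyte markers was thus 0.02 log2 units lower in HFD_CR than in LFD (difference -0.02). That of the breakdown genes was 0.28 lower (difference -0.28). Of the markers, Cidec, Fabp4, Lpl, Cd36 and Retn read between 13.38 and 14.13, where the highest signal on any array was 14.41. Adipoq, Plin1, Lipe and Pnpla2 had lower group means, from 11.26 to 13.39. Whether differences are narrowed near the top of the scale was not tested, so these list means are not comparable gauges.

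Of 8 macrophage markers 8 rose in HFD (median 1.04), 8 fell in HFD_CR against HFD (median -0.89) and Cd68, Itgax and Trem2 were higher in HFD_CR than in LFD (median 0.25). Their mean lay between 9.81 and 10.3 in LFD, 11.3 and 11.8 in HFD, and 10.3 and 10.9 in HFD_CR. Of 8 thermogenic markers Cidea, Cox8b and Ppargc1a fell in HFD (median -0.88), Ppargc1a rose and Dio2 and Otop1 fell in HFD_CR against HFD (median -0.40), and Ucp1, Cidea, Dio2 and Cox8b were lower in HFD_CR than in LFD (median -1.16). The Ucp1 call was lost in 13 of 27 alternative settings. The calls of Cidea, Cox8b, Dio2 and Otop1 were not rerun in those settings, which include 1 without LFD mice 3 and 6. The mean of the 8 thermogenic markers ran from 7.93 to 10.6 in LFD, 7.85 to 8.52 in HFD and 7.52 to 8.17 in HFD_CR. Without LFD mice 3 and 6, in which it was highest, the breakdown genes still all fell in HFD, with a median of -0.55. The part of the adipocyte and macrophage content of the samples in the differences of the breakdown genes was not tested.

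**Figure D5:**
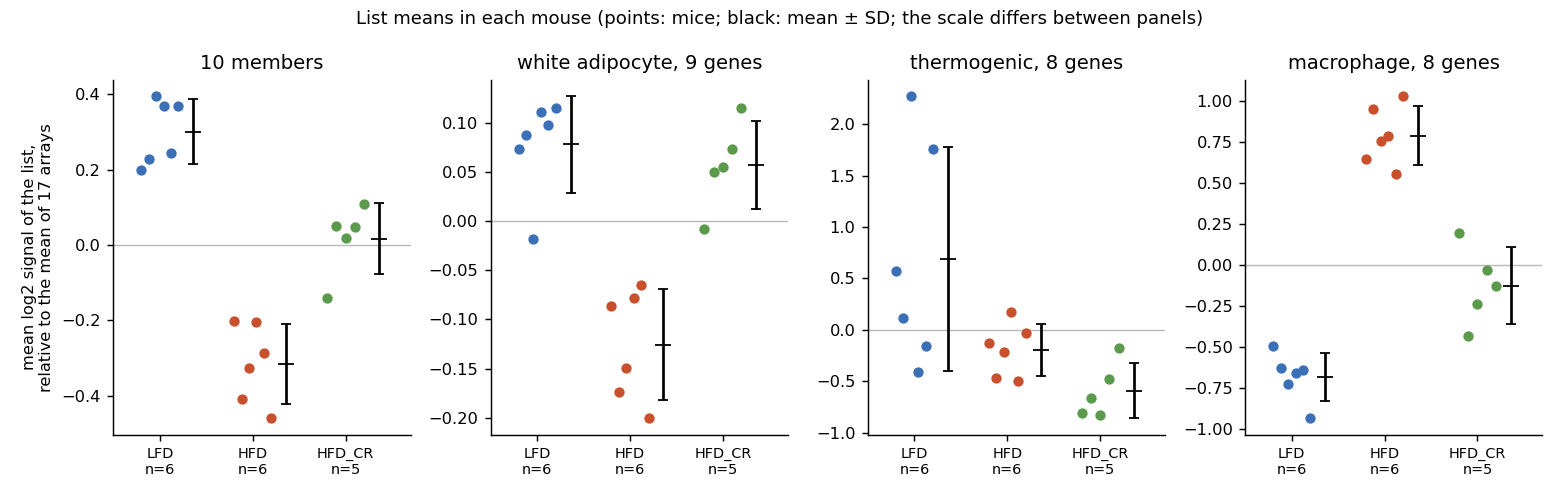
Mean log2 signal of the 10 breakdown genes and of the white adipocyte, thermogenic and macrophage marker lists in each mouse (points), relative to the mean of the 17 arrays, with group mean ± SD in black; the vertical scale differs between panels. The breakdown genes and the adipocyte markers are lowest in HFD and the macrophage markers highest there, and the thermogenic markers are high in LFD mice 3 and 6.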

How the data were processed

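Periprostatic fat RNA of 17 mice was measured on 17 arrays. The authors deposited log2 signals per probe set, and RMA, limma and R 3.5.0 are named in the submitters' processing notes, without roles. RMA subtracts background, brings arrays to 1 distribution and combines probes, which narrows large differences. The labels describe separate animals. Of 33793 probe sets, 23521 had 1 gene symbol, 1814 several and 8458 none in the platform annotation. The best-measured probe set per symbol (highest mean) gave 22180 genes.

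A mean per group was fitted with limma 3.58.1 in R 4.3.3 (lmFit, eBayes without trend), with 3 contrasts, and genes were called at a Benjamini-Hochberg adjusted p under 0.05. Subunit differences were compared by exact permutation over mice. Plots used matplotlib 3.10.9 (Python 3.11.15).

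The 10 genes and all lists were chosen with earlier results of these data known. Named genes are the 10, up to 4 per list with the largest passing difference, and Bckdk, Ppm1k, Dld, Bcat1, Slc25a44, Adipoq and Ucp1. Others are marked. The alternatives were single mice left out, a mouse-number block, other filters, probe set rules, normalizations and variance models, and fewer arrays. The genome build behind the array annotation is not given in the sources used here, so array positions are not printed.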

Additional observations from a re-analysis of the deposited data

Results flagged for a closer look

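The 27 genes tested here were the 10, others of the pathway, Adipoq and Ucp1. Each of their 81 groups of mice, 3 per gene, was tested for 1 mouse far from the rest. The gap to the nearest mouse over the range was set against Dixon's 95% critical value. Such a mouse was found in 4 groups, where chance gives about 1 in 20. Mccc2 read 10.56 in HFD mouse 1, against 10.35 in the next mouse and 10.23 in the farthest. Pccb read 10.60 in HFD_CR mouse 1, against 10.73 and 10.79. Hibch, the hydroxyisobutyryl-CoA hydrolase of the valine path, named after its values were seen, read 10.27 in HFD mouse 1, against 9.98 and 9.85, and 10.06 in HFD_CR mouse 1, against 10.43 and 10.53.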

How the results depend on the processing

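The fall of all 10 genes in HFD and the rise of 9 in HFD_CR against HFD were the same in all 27 alternatives. These alternatives are not independent of each other. Leaving out a mouse of the third group does not alter the signals of the groups compared. Averaging probe sets does not either, since each of the 10 genes has 1. Leaving out 1 mouse gave 5 to 8 genes lower in HFD_CR than in LFD, and 3 to 9 other pathway genes different. Without the 4 arrays with other tissue these counts were 4 and 3, and without LFD mice 3 and 6 they were 3 and 3. Of 216 cases (8 called genes in 27 alternatives), 29 lost the call in this comparison, mostly Ivd and Mccc2. None of 270 did in HFD against LFD and none of 243 in HFD_CR against HFD. The number of all genes called, with 1 mouse left out, ran from 5396 to 6426 in the diet comparison, 3382 to 4601 under restriction, and 1507 to 2355 between the restricted and LFD groups.

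With 1 mouse left out, Bckdha minus Bckdhb ran from -0.31 to -0.23 for HFD_CR against LFD and from 0.14 to 0.24 for HFD_CR against HFD. Mccc1 minus Mccc2 ran from -0.28 to -0.20 for HFD against LFD, from 0.059 to 0.14 for HFD_CR against HFD and from -0.18 to -0.12 for HFD_CR against LFD. Applying quantile normalization again brought Bckdha minus Bckdhb past the threshold for HFD_CR against HFD (0.20, adjusted p = 0.0390, exact permutation test). Without the 4 arrays with other tissue, Bckdha minus Bckdhb for HFD_CR against LFD (-0.24) and Mccc1 minus Mccc2 for HFD against LFD (-0.22) did not pass (adjusted p = 0.119 for both, exact permutation test). Without LFD mice 3 and 6 they were -0.17 (adjusted p = 0.101) and -0.24 (adjusted p = 0.0964, exact permutation test). These runs hold fewer mice, and the cause was not tested.

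For same-numbered mice of different groups, the correlation of their deviations ran from -0.11 to 0.41 over 16 pairs, with 5 over 0.1. The highest was that of HFD mouse 3 with LFD mouse 3. Pairs of unlike number were not compared. The labels describe separate animals, and the numbers were not taken to pair them. With the replicate block, by exact sign changes, Bckdha minus Bckdhb was -0.47 for HFD against LFD and -0.23 for HFD_CR against LFD. Mccc1 minus Mccc2 was -0.23 and Pcca minus Pccb 0.20 for HFD against LFD, and Pcca minus Pccb was -0.20 for HFD_CR against HFD. All 5 had an adjusted p of 0.0938 (exact permutation test), in a design whose smallest p is 0.0312 with 6 pairs and 0.0625 with 5. The block left 10, 9 and 7 of the 10 genes called in the 3 comparisons.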
